A study of Mus musculus with 4 samples.

Results

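Arterial endothelial cells line the arteries and arterioles that carry blood into the heart muscle. Their nuclei were examined in single-nucleus RNA-seq of whole mouse hearts, where they made up 412 of the 45483 nuclei that passed the quality limits and 412 of 7331 endothelial nuclei. The mice were C57BL/6 and 6 months old, and each library was made from the total cardiac nuclei of 3 pooled hearts with the 10x Genomics 3' v3 assay. There was 1 library for each of 4 genotypes: RBM20 homo with correction (a homozygous RBM20 mutation after gene editing, called corrected here), RBM20 homo (the same homozygous mutation without editing), RBM20 het (the heterozygous mutation) and WT. RBM20 is a splicing factor of heart muscle, and the study asked what correcting its mutation does in a mouse model of dilated cardiomyopathy. The mutation itself, the editing agent, the way it was delivered and the cells it reaches are not given in the sources used here. Because a library pools 3 hearts and stands alone for its genotype, a difference between libraries has no replicate check, and no p-value is given anywhere below.

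A nucleus was called arterial endothelial when it met every limit of a rule on unique molecular identifiers (UMIs, each counting 1 captured RNA molecule). It had at least 300 genes, at most 5% mitochondrial UMIs and less than 2.5% of its UMIs in Ttn, Ryr2, Myh6 and Rbm20, which mark heart muscle. It had at least 2 UMIs over the endothelial genes Flt1, Ptprb, Cyyr1 and Pecam1, and at least 3 UMIs over 6 arterial genes, Sema3g, Gja5, Lama3, Sox17, Eps8l2 and St8sia6. It had at most 1 UMI over the endocardial genes Npr3, Tmem108 and Smoc1, at most 1 over the lymphatic genes Reln and Mmrn1, and at most 2 over the fibroblast genes Pdgfra, Dcn, Col1a2 and Abca8a. The rule left 109 nuclei in corrected, 133 in RBM20 homo, 107 in RBM20 het and 63 in WT. The nuclei were thus selected on their own measured values, so the levels that separate them from other endothelial nuclei are a description. Other endothelial nuclei are those that met the same rule with 0 UMIs of the 6 arterial genes: 2249 in corrected, 1060 in RBM20 homo, 1165 in RBM20 het and 1274 in WT.

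As background, arterial identity is set by blood flow and by the VEGF and Notch pathways. The ligands DLL4 and JAG1 on one cell bind NOTCH1 and NOTCH4 on the next, the cleaved receptor enters the nucleus and joins the DNA-binding protein RBPJ, and genes such as HEY1 are switched on while the venous regulator NR2F2 is held low. SOX17 and ETS-family factors act at arterial enhancers, ephrin-B2 marks the arterial surface, connexin 40 (Gja5) and connexin 37 (Gja4) couple arterial cells, and elastin is laid down in the sheets beneath them that let an artery recoil.

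Sequences upstream of the 3 genes that ranked first among those higher in arterial nuclei and not used by the rule are shown, since motifs for the factors named above can be looked for in them. These are Mannr, a long noncoding RNA next to Mecom, Bmx, a cytoplasmic tyrosine kinase of arterial and endocardial endothelium, and Fbln5, a fibulin that helps to assemble elastic fibres and is listed with 2 start sites. Each run is the 250 bases before the start site, on the gene's strand, from RefSeq on GRCm38.p6. Capitals mark TGGGAA (named RBPJ here), ACAAT (named SOX) and GGAAG (named ETS) on either strand, and TGGGAA and GGAAG can overlap each other.
Mannr, chr3:29890767-29891016, plus strand: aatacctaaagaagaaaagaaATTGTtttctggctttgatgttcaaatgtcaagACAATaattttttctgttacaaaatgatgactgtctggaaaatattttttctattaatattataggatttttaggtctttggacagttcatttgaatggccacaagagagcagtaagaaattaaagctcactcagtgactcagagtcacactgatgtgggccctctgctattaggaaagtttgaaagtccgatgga
Bmx, chrX:164258194-164258443, minus strand: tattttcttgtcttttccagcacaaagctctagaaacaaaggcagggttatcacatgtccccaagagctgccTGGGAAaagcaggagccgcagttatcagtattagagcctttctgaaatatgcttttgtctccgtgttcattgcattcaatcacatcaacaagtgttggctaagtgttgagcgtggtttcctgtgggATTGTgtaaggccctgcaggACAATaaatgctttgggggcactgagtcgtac
Fbln5, first start, chr12:101819120-101819369, minus strand: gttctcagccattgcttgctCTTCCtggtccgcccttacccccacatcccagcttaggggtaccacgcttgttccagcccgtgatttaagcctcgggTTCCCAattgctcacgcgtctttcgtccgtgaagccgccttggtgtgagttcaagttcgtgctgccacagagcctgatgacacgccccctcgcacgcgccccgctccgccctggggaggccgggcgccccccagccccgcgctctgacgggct
Fbln5, second start, chr12:101818485-101818734, minus strand: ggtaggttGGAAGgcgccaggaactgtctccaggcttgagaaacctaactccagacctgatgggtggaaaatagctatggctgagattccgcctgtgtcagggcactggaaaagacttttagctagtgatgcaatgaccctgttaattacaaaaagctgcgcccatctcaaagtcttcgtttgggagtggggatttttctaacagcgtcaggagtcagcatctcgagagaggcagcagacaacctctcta
Mannr held 0 RBPJ, 2 SOX and 0 ETS matches, Bmx 1, 2 and 0 in the same order, the first Fbln5 start 1, 0 and 1, and the second 0, 0 and 1. RefSeq promoters were matched for 12 of the 15 genes that ranked first, with 18 start sites in all. TGGGAA was in 6 of these 18 promoters, ACAAT in 4 and GGAAG in 10. Over all 32851 promoters of the same length the shares were 21.6%, 27.7% and 64.1%. A match is a run of letters and not a measured binding site.

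The label was checked against marker genes that the rule did not use. The 19 arterial markers outside the rule summed to 10250 UMIs per 1000000 non-mitochondrial UMIs (CPM) in corrected arterial nuclei, 8822 in RBM20 homo, 9546 in RBM20 het and 10069 in WT. In other endothelial nuclei the same markers summed to 3774, 3818, 4546 and 4390 CPM in the same order of libraries. A large part of these sums and of their difference came from Mecom alone, whose values are given below. Taken singly, 14 of the 17 that could be measured were at least 1.5-fold higher in all 4 libraries. The 11 pan-endothelial markers outside the rule, such as Cdh5 and Tie1, summed to 5188, 4627, 4888 and 5247 CPM in arterial nuclei and to 3981, 3657, 4277 and 4917 CPM in other endothelial nuclei. Capillary markers, 12 genes led by lipid-handling and capillary surface genes, were lower in the arterial nuclei, at 2052, 2761, 2652 and 2538 CPM, than in the other endothelial nuclei, at 3848, 3979, 4200 and 4480 CPM. Venous markers were lower in sum, at 904, 859, 1145 and 947 CPM against 1663, 1886, 1712 and 1845 CPM. Of 12 listed, 8 could be measured, and 2 of these, Nr2f2 and Nrp2, were at least 1.5-fold lower in all 4 libraries. Nrp2 had 160, 96.2, 195 and 171 CPM against 737, 476, 565 and 779 CPM, a large part of the summed difference. The venous adhesion genes Ackr1 and Sele had 0 UMIs in the arterial nuclei of all 4 libraries, which allows up to 9.62 to 20.6 CPM. In sum, arterial markers were thus high, and capillary and venous markers low, in each library.

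RNA of other lineages was also present in the arterial nuclei. Their part in the results was not tested except where a value without those nuclei is given. At least 3 UMIs of the macrophage genes F13a1, Mrc1, Cd163 and Csf1r were found in 9 of the 109 arterial nuclei in corrected, 10 of 133 in RBM20 homo, 8 of 107 in RBM20 het and 9 of 63 in WT. The share was highest in WT, at 14.3%, and lay between 7.48% and 8.26% in the other 3 libraries. The corresponding numbers of nuclei for the pericyte genes Pdgfrb, Rgs5, Abcc9 and Kcnj8 were 8, 3, 3 and 2, and 1 nucleus in each library had at least 3 UMIs of smooth muscle genes. Values called "without marked nuclei" below leave out these nuclei, which keeps 93 arterial nuclei in corrected, 119 in RBM20 homo, 95 in RBM20 het and 51 in WT. Cardiomyocyte markers summed to 7540 to 8383 CPM in arterial nuclei and to 6971 to 9210 CPM in other endothelial nuclei, so RNA of heart muscle was in both. The smooth muscle marker Cnn1 and the endocardial marker Hapln1 had 0 UMIs in all 4 libraries.

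Arterial nuclei were shallow. The median was 1913 UMIs per nucleus in corrected, 1977 in RBM20 homo, 2043 in RBM20 het and 2132 in WT, and their summed UMIs were 238366, 312481, 257598 and 146219 in that order. A gene with 0 UMIs could therefore have had up to 12.6, 9.62, 11.7 or 20.6 CPM (3 counts of the total). Intervals in square brackets are 95% intervals for counting error only, exact for shares (Clopper-Pearson) and for CPM ratios (conditional binomial) and approximate on the log scale for ratios of shares. Of the cell barcodes, 26 to 56 occurred in both libraries of a pair. None of them was arterial in both, and 2 arterial nuclei carried such a barcode.

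The share of endothelial nuclei that met the arterial rule differed between the libraries. It was 3.93% [3.24 to 4.72] in corrected, 9.04% [7.62 to 10.6] in RBM20 homo, 6.93% [5.71 to 8.31] in RBM20 het and 4.09% [3.15 to 5.2] in WT. The intervals of corrected and WT overlapped each other, and RBM20 homo and RBM20 het both lay above them without overlap. With nuclei thinned to 1000 UMIs before the rule was applied, the shares were 1.51% [1.08 to 2.05] in corrected, 3.81% [2.92 to 4.86] in RBM20 homo, 2.27% [1.60 to 3.12] in RBM20 het and 1.51% [0.950 to 2.28] in WT. There the interval of RBM20 het overlapped those of corrected and WT, and RBM20 het over WT was 1.5 [0.890 to 2.53]. RBM20 homo over WT gave a ratio of 2.21 [1.65 to 2.96], RBM20 het over WT 1.70 [1.25 to 2.30], corrected over RBM20 homo 0.435 [0.340 to 0.556] and corrected over WT 0.962 [0.710 to 1.30]. These intervals do not hold the spread between hearts or between nucleus preparations, which cannot be told apart from genotype with 1 library each.

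**Figure D1:**
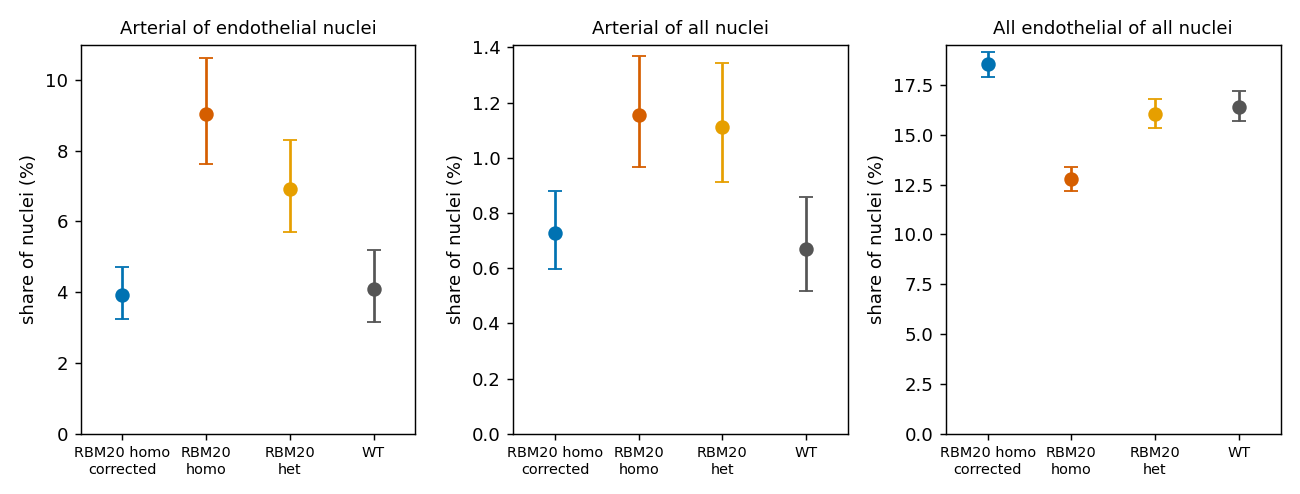
Arterial endothelial nuclei as a percentage of endothelial nuclei and of all nuclei in each library (left and middle, y axes in percent), and endothelial nuclei as a percentage of all nuclei (right), with exact 95% counting intervals as bars; each point is 1 library of 3 pooled hearts. Of endothelial nuclei, RBM20 homo (9.04%) and RBM20 het (6.93%) stood above corrected (3.93%) and WT (4.09%).

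Both the arterial nuclei and the endothelial nuclei they were divided by varied. As a share of all nuclei, arterial nuclei made up 0.729% [0.599 to 0.878] in corrected, 1.16% [0.968 to 1.37] in RBM20 homo, 1.11% [0.912 to 1.34] in RBM20 het and 0.671% [0.516 to 0.857] in WT. RBM20 homo was then 1.72-fold above WT [1.28 to 2.32], RBM20 het 1.66-fold above WT [1.22 to 2.26], and corrected 0.631 of RBM20 homo [0.490 to 0.812]. All endothelial nuclei made up 18.5% of nuclei in corrected, 12.8% in RBM20 homo, 16.1% in RBM20 het and 16.4% in WT. Their ratio to WT was 1.13 [1.07 to 1.2] in corrected, 0.778 [0.729 to 0.832] in RBM20 homo and 0.978 [0.917 to 1.04] in RBM20 het, where the interval includes 1. Smooth muscle nuclei, which surround the same vessels, made up 0.755% of nuclei in corrected, 0.929% in RBM20 homo, 0.832% in RBM20 het and 0.756% in WT. With nuclei counted per library, more arterial cells, fewer cells of other kinds and uneven recovery of nuclei cannot be told apart. Leaving each of the 6 arterial genes out of the sum in turn gave 2.17 to 2.64 for RBM20 homo over WT, 1.63 to 1.89 for RBM20 het over WT and 0.394 to 0.485 for corrected over RBM20 homo.

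The 6 genes of the rule were each found in a minority or a small majority of the arterial nuclei. Lama3, a laminin chain, had a UMI in 65.1% of arterial nuclei in corrected, 57.1% in RBM20 homo, 51.4% in RBM20 het and 54.0% in WT. Sox17, the arterial transcription factor, was found in 47.7%, 63.2%, 58.9% and 55.6% in the same order, and Sema3g, a secreted semaphorin, in 38.5%, 54.1%, 43.9% and 47.6%. Gja5, connexin 40, had the widest spread between libraries. It had a UMI in 39.4% [30.2 to 49.3] of arterial nuclei in corrected, 35.3% [27.3 to 44.1] in RBM20 homo, 29.0% [20.6 to 38.5] in RBM20 het and 20.6% [11.5 to 32.7] in WT. Fibroblast nuclei, which should lack these genes and were deeper (medians of 2443.5 to 2971.5 UMIs), held a UMI of each gene in 0.128% to 1.33%. Arterial nuclei were selected on these same genes, so the contrast with fibroblast nuclei was set by the rule and is no check of the label. The shares per library are likewise a description of selected nuclei. Of the 412 nuclei, 41 had UMIs of 1 of the 6 genes alone, 125 of 2 genes, 144 of 3, 79 of 4, 22 of 5 and 1 of all 6, numbers that the minimum of 3 UMIs helps to set.

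The limit of 3 UMIs cut through a continuous range. Just inside it, 44 nuclei in corrected, 46 in RBM20 homo, 38 in RBM20 het and 27 in WT had exactly 3 UMIs. Just outside, 106, 59, 68 and 54 endothelial nuclei had 2 UMIs. Over the 4 libraries together, the arterial markers outside the rule summed to 4085 CPM in nuclei with 0 UMIs of the rule's arterial genes, 4989 with 1, 6728 with 2, 8232 with 3, 10120 with 4 or 5 and 10552 with 6 or more. Capillary markers had 4091 CPM at 0 UMIs and 4245 CPM at 1 UMI, and then were lower at each further step, with 3431, 3015, 2609 and 1777 CPM. Fbln5 and Bmx climbed at every step, Fbln5 with 10.4, 29.2, 122, 144, 248 and 340 CPM and Bmx with 13.2, 44.7, 99.8, 217, 291 and 485 CPM. Jag1, Dll4 and Mecom did so too, but Hey1, Gja4, Vegfc, Efnb2 and Unc5b did not. Mecom had 1787 CPM at 0 UMIs and 5455 CPM at 6 or more, a large part of the arterial sums. Efnb2 had 120, 225, 351, 395, 373 and 370 CPM, and Unc5b 43.3, 79.4, 126, 111, 108 and 101 CPM. In corrected alone, Fbln5 fell from 139 CPM at 2 UMIs to 54.2 at 3. Median depth also climbed, with 1661, 1732, 1735, 1831, 1956.5 and 2311 UMIs per nucleus, and its part in the steps was not tested. Over the 4 libraries together, nuclei with 2 UMIs thus stood between the other endothelial nuclei and the arterial nuclei in the summed markers, Fbln5 and Bmx.

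**Figure D2:**
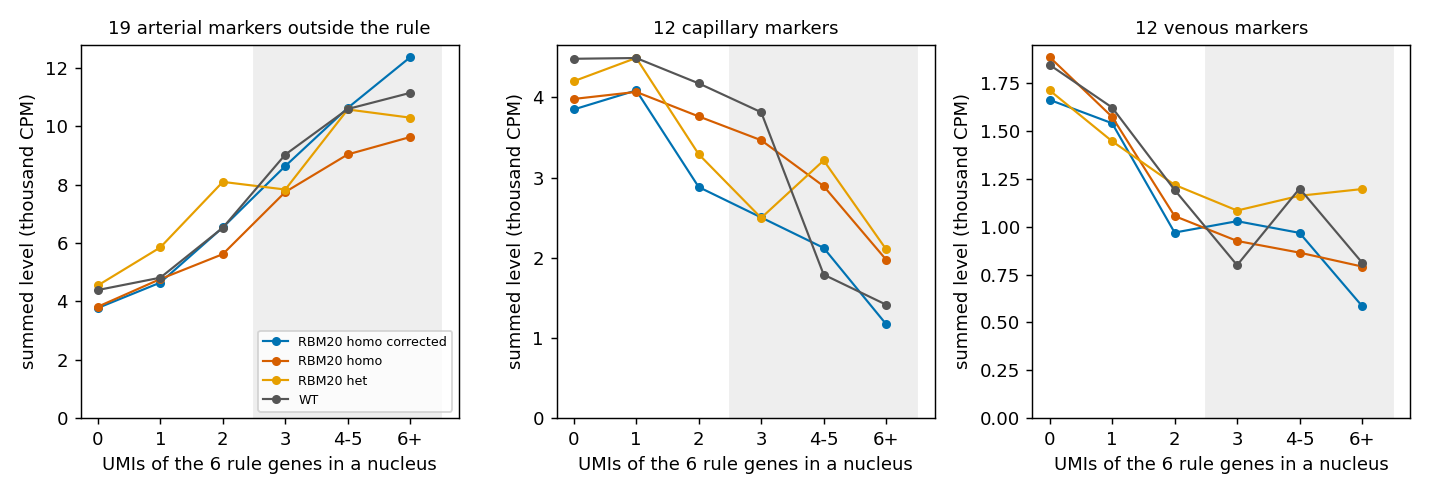
Summed CPM of arterial markers outside the rule, capillary markers and venous markers (y axes) in endothelial nuclei grouped by their UMIs of the 6 arterial genes (x axis), 1 line per library, with the arterial nuclei on a shaded ground. Arterial markers were higher at higher sums of UMIs (4085 CPM at 0 and 10552 CPM at 6 or more over the 4 libraries), and capillary markers were lower (4091 and 1777 CPM).

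The genes that set arterial nuclei apart from other endothelial nuclei are given as a description, because the rule chose the nuclei on this contrast. A gene counts as past the fold here when it was at least 1.5-fold apart in the same direction in all 4 libraries, among genes with at least 100 UMIs. Of 10406 genes, 204 were higher in arterial nuclei (1.96%) and 343 lower (3.3%), and the median gene had a log2 ratio of -0.11. The named genes are from the 15 that ranked first in each direction by the end of the counting interval nearest to 1.

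Mannr had 357 CPM in arterial nuclei of corrected, 305 in RBM20 homo, 273 in RBM20 het and 336 in WT, against 9.62, 2.87, 4.73 and 9.05 CPM in other endothelial nuclei. Bmx had 198, 410, 312 and 336 CPM in arterial nuclei, against 7.70, 25.3, 11.6 and 13.8 CPM. Fbln5 had 181, 327, 226 and 151 CPM in arterial nuclei, against 12.7, 12.9, 7.73 and 7.08 CPM. All 3 were more than 14-fold higher in the arterial nuclei of every library. They differed in where else they were found: endocardial nuclei had 489, 635, 903 and 870 CPM of Bmx, 11.5, 16.7, 8.09 and 5.35 CPM of Fbln5 and 9.88, 1.52, 16.2 and 16.1 CPM of Mannr. A Bmx UMI was in 26.6%, 41.4%, 31.8% and 36.5% of arterial nuclei, against 0.15%, 0.824%, 1.34% and 0.623% of macrophage nuclei, which should lack it. For Fbln5 the shares were 28.4%, 45.1%, 34.6% and 25.4% against 1.05%, 2.75%, 1.67% and 1.56%. Fibroblast nuclei, which were deeper, held an Fbln5 UMI in 14.9%, 14.4%, 18.3% and 21.8%, highest in WT. Their shares for Bmx were 1.13%, 1.18%, 1.34% and 0.989%.

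The other genes of this group covered several functions. Arl15, a small GTPase, differed by a similar ratio in each library, with 5091, 5102, 5371 and 5110 CPM in arterial nuclei against 944, 850, 967 and 972 CPM in other endothelial nuclei, 5.26 to 6.00-fold. Pcsk5, a proprotein convertase, was 9.28 to 22.6-fold higher and Prdm16, a zinc-finger transcription factor, 8.74 to 9.36-fold. Alox12, a lipoxygenase, was 9.83 to 17.1-fold higher and Alpl, alkaline phosphatase, 8.09 to 21.6-fold. Fn1, fibronectin, had 206, 273, 167 and 178 CPM against 28.1, 40.6, 23.6 and 24.8 CPM, and Col18a1, the collagen that gives rise to endostatin, was 8.20 to 19.9-fold higher. Nebl, which encodes the actin-binding protein nebulette, was 9.16-fold higher in corrected, 12.8-fold in RBM20 homo, 10.6-fold in RBM20 het and 4.98-fold in WT. Crispld1, Ptchd1 and Slc45a4 had ratios between 5.44 and 35.8, and Smad6 is described with the BMP genes.

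The genes lowest in arterial nuclei were led by Kirrel3, an adhesion molecule, with 50.5, 25.7, 136 and 13.7 CPM in arterial nuclei against 538, 619, 845 and 489 CPM in other endothelial nuclei. Hdac9, a histone deacetylase, had 437, 497, 752 and 473 CPM against 2196, 2109, 2365 and 2365 CPM. Nrp2, the neuropilin of veins and lymphatics, had 160, 96.2, 195 and 171 CPM against 737, 476, 565 and 779 CPM. The others reported in this direction, Tmtc2, Stxbp6, Fmo1, Samd5, Tshz2, Nav3, Ccdc85a, Fmo2, Ncald, Rasa4 and Car8, were at or below 0.433 of the other endothelial level in each library.

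**Figure D3:**
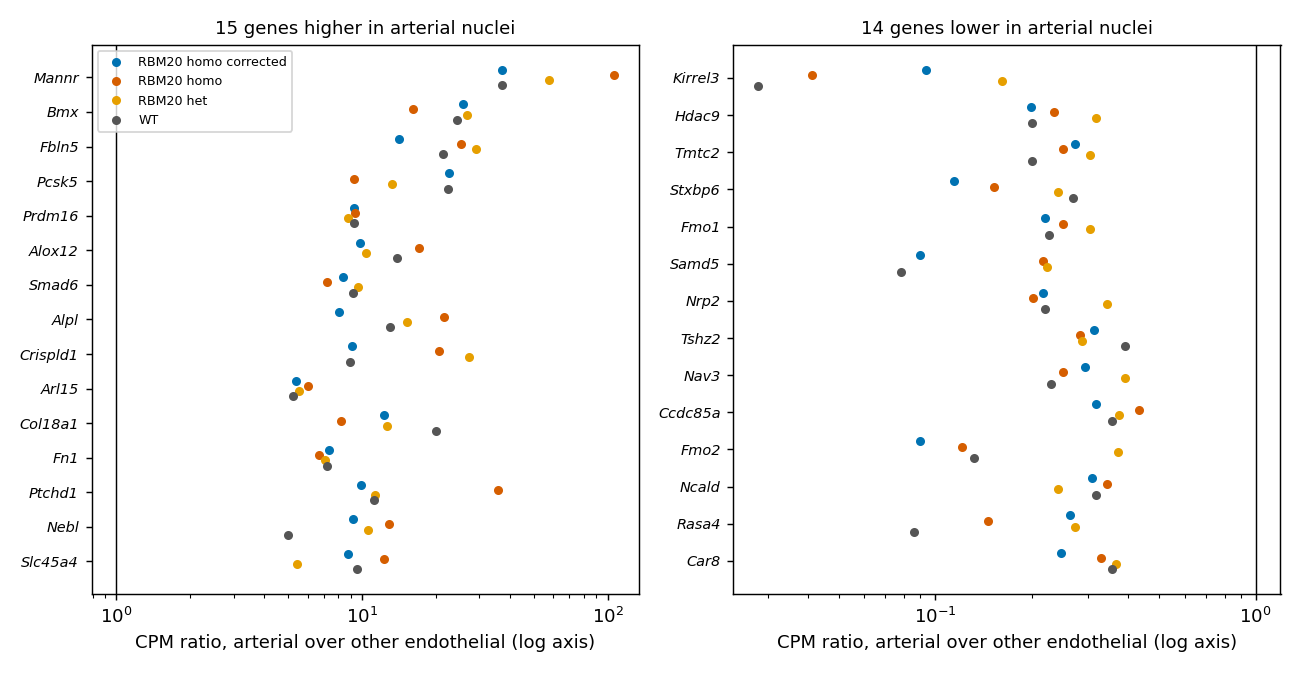
CPM ratio of arterial over other endothelial nuclei (x axis, log scale) for the genes that ranked first in each direction (15 higher and 14 lower), 1 point per library. Every point of the left panel lies above 1, and every point of the right panel is at or below 0.433.

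Lists of genes by pathway show which parts of the arterial programme stood apart. Of 23 Notch pathway genes measured, 6 were past the fold upward in all 4 libraries and 0 downward, with a median log2 ratio of 0.11. The ligand Jag1 had 269, 324, 218 and 281 CPM in arterial nuclei against 50.3, 32.5, 49.4 and 52.7 CPM in other endothelial nuclei, and the ligand Dll4 had 109, 99.4, 85.7 and 117 CPM against 26.9, 35.9, 34.4 and 41.3 CPM. The receptors differed less, Notch1 by 1.76 to 2.78-fold and Notch4 by 1.54 to 2.46-fold. The target Hey1 had 71.5, 67.3, 70.1 and 34.3 CPM against 4.33, 5.26, 4.30 and 6.69 CPM, and Nrarp, a feedback inhibitor of the pathway, was 2.09 to 3.18-fold higher. Ligands, receptors and targets were thus all represented, whereas Rbpj itself was not past the fold, at 0.770 to 1.16.

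Of 29 endothelial transcription factors measured, 4 were higher and 4 lower. Mecom, a zinc-finger factor of arterial endothelium, had 5499, 4618, 5207 and 5076 CPM in arterial nuclei against 1430, 1918, 2306 and 1788 CPM in other endothelial nuclei. Epas1, the hypoxia factor HIF-2 alpha, was 1.72 to 2.12-fold higher, Gata2 2.18 to 2.53-fold, and Prdm16 is given above. Nr2f2, the venous regulator, had 37.8, 22.4, 54.5 and 27.4 CPM against 118, 190, 177 and 139 CPM. The others that were lower were Fli1 and Ets2, of the ETS family, at 0.396 to 0.606 and 0.148 to 0.463, and Tcf15, a factor of capillary endothelium, at 0.373 to 0.610.

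Signals between cells differed by gene. Of 12 VEGF and angiopoietin genes outside the rule, Vegfc was the 1 that was higher, with 1404, 914, 1281 and 1434 CPM in arterial nuclei against 377, 372, 480 and 470 CPM, and Nrp2 the 1 that was lower. In the guidance list 6 of 24 were higher, among them Efnb2, which encodes ephrin-B2, with 521, 301, 296 and 466 CPM against 103, 126, 122 and 139 CPM, and Efna5, an ephrin-A ligand, with 3.93 to 8.63-fold. Unc5b, a netrin receptor, was 1.59 to 4.0-fold higher, and Nrp2 and Sema6a were the 2 that were lower. Of 18 BMP and TGF-beta genes, 5 were higher and 2 lower. Smad6, which inhibits BMP signals, had 324, 330, 436 and 309 CPM against 38.7, 45.9, 45.1 and 33.4 CPM, Smad7 was 2.36 to 3.19-fold higher, and the ligand Bmp6 was lower at 0.244 to 0.417. Endocardial nuclei had 428, 454, 620 and 403 CPM of Smad6, above the arterial nuclei in each library. In the list of vascular tone, with 17 measured, Edn1 (endothelin-1, a constrictor), Ace (angiotensin-converting enzyme) and Trpv4 (a calcium channel opened by flow) were higher. Edn1 had 37.8, 154, 62.3 and 130 CPM against 6.73, 27.7, 4.30 and 9.44 CPM. Ednrb, Ptgs1 and Calcrl, a receptor for adrenomedullin, were lower, and Calcrl had 135, 154, 218 and 192 CPM against 486, 736, 493 and 607 CPM.

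Of 22 genes of elastic fibres and basement membrane, 7 were higher: Eln (elastin) at 2.32 to 5.97-fold, Fbln5, Fbln2, Mgp, which keeps vessel walls free of calcium, at 2.51 to 7.43-fold, Fn1, Col8a1 at 2.55 to 6.72-fold and Sulf1 at 2.52 to 4.71-fold. The 3 that were lower, Col4a1, Lama4 and Hspg2, encode proteins of the basement membrane and lay at 0.425 to 0.621 of the other endothelial level, whereas Col18a1, another basement membrane gene and not on this list, was higher as given above. Of 16 junction and connexin genes, Gja4 and the tight junction gene Cldn5 were higher and Gjc1 was lower. Cldn5 had 114, 144, 105 and 103 CPM against 19.2, 20.6, 9.02 and 24.4 CPM. Gja4 had 50.5, 44.9, 11.7 and 82.3 CPM against 6.73, 7.65, 5.16 and 7.87 CPM, where the RBM20 het value of 11.7 CPM was 3 UMIs.

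Genes of fuel uptake and of capillaries stood on the other side. Of 13 lipid uptake genes, 0 were higher and 3 lower, Fabp4, Fabp5 and Gpihbp1, and Fabp4 had 324, 702, 584 and 631 CPM against 818, 1067, 1033 and 1333 CPM. Of the 12 capillary markers, 8 were lower (the apelin receptor Aplnr at 0.115 to 0.279, carbonic anhydrase 4, Car4, at 0.0608 to 0.301, Rgcc at 0.269 to 0.492) and 1, Btnl9, was higher at 1.56 to 4.79-fold. Of the 17 arterial markers outside the rule that could be measured, 14 were higher, and Jag2, Nrp1 and Depp1 were not past the fold. No gene of the lists for interferon and antigen presentation (18 measured), adhesion and chemokines (13), immediate early response (11), clock (15) or glucocorticoid response (11) was past the fold in either direction.

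The rule did not compare libraries, but it selected nuclei in each library on the genes it counts, and those genes are left out of the comparisons of RBM20 homo with WT and of the other genotypes. A gene counts as past the fold in the comparisons of genotypes when it was at least 1.5-fold apart, among genes whose UMIs in both libraries came to 100 or more. Of 848 genes, 109 were higher in RBM20 homo (12.9%) and 67 lower (7.9%), with a median log2 ratio of 0.01. Of these calls 61.9% were upward. The share was 77.9% with TMM scaling, which moved the median log2 ratio of all genes to 0.13, 52.2% with a minimum of 50 UMIs and 48.9% with each arterial nucleus thinned to 1000 UMIs, called matched depth below. The named genes follow from the end of the interval nearest to 1. They needed at least 30 UMIs, so several of them lie outside the 848 genes and these calls. Slc26a10, for example, had 15 UMIs in RBM20 homo and 30 in WT.

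Genes of the elastic fibre stood out. Eln had 996 CPM in arterial nuclei of corrected, 2094 in RBM20 homo, 2033 in RBM20 het and 665 in WT, from 237, 653, 522 and 97 UMIs. RBM20 homo was 3.15-fold above WT [2.54 to 3.94], and the 2 libraries with an uncorrected mutation stood well above the other 2. Other endothelial nuclei had 240, 627, 341 and 286 CPM of Eln, so RBM20 homo over WT was 2.19 there, and endocardial nuclei of RBM20 homo had 916 CPM. Mgp had 273 CPM in arterial nuclei of corrected, 972 in RBM20 homo, 779 in RBM20 het and 350 in WT, 2.78-fold [2.06 to 3.81] for RBM20 homo over WT. In other endothelial nuclei it had 78.9, 387, 105 and 70.4 CPM, a ratio of 5.5 for RBM20 homo over WT. Endocardial nuclei had 379, 976, 841 and 521 CPM of Mgp, similar to or above the arterial level in each library. Fbln5, at 327 CPM in RBM20 homo and 151 in WT, was 2.17-fold apart [1.36 to 3.61]. Fibulin-5 binds elastin and cell-surface integrins.

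Shares of nuclei with a UMI were set beside those of macrophage nuclei, which should lack elastic fibre genes. An Eln UMI was found in 51.4% of arterial nuclei in corrected, 69.2% in RBM20 homo, 61.7% in RBM20 het and 46.0% in WT, against 5.71%, 6.87%, 2.68% and 3.74% of macrophage nuclei, whose median depths were 1839, 2151.5, 1920 and 1886 UMIs. For Mgp the shares were 24.8%, 66.9%, 42.1% and 27.0% in arterial nuclei and 11.1%, 42.3%, 12.4% and 9.97% in macrophage nuclei. The Mgp share of macrophage nuclei was therefore also highest in RBM20 homo. Fibroblast nuclei, which were deeper, held an Mgp UMI in 31.9%, 74.5%, 43.5% and 34.5%, above the arterial share in every library. For Eln the fibroblast shares were 47.0%, 26.3%, 23.9% and 24.1%, highest in corrected. With each arterial nucleus thinned to 1000 UMIs, which left out 5 nuclei in corrected, 0 in RBM20 homo, 3 in RBM20 het and 1 in WT, Eln was found in 37.5%, 54.9%, 47.1% and 32.3% and Mgp in 15.4%, 48.9%, 31.7% and 21.0%.

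Nebl followed another order of libraries. It had 1097 CPM in corrected, 1382 in RBM20 homo, 1149 in RBM20 het and 535 in WT, from 261, 431, 295 and 78 UMIs, and RBM20 homo was 2.58-fold above WT [2.03 to 3.33]. All 3 libraries with a mutated or edited allele stood above WT. Other endothelial nuclei showed no such order, with 120, 108, 109 and 107 CPM and a ratio of 1.0 [0.836 to 1.2] for RBM20 homo over WT. In cardiomyocyte nuclei, where nebulette sits at the Z-disc, Nebl had 873, 627, 854 and 936 CPM and was lowest in RBM20 homo. A Nebl UMI was in 63.3%, 66.2%, 61.7% and 47.6% of arterial nuclei, against 17.1%, 11.5%, 15.4% and 13.1% of macrophage nuclei.

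**Figure D4:**
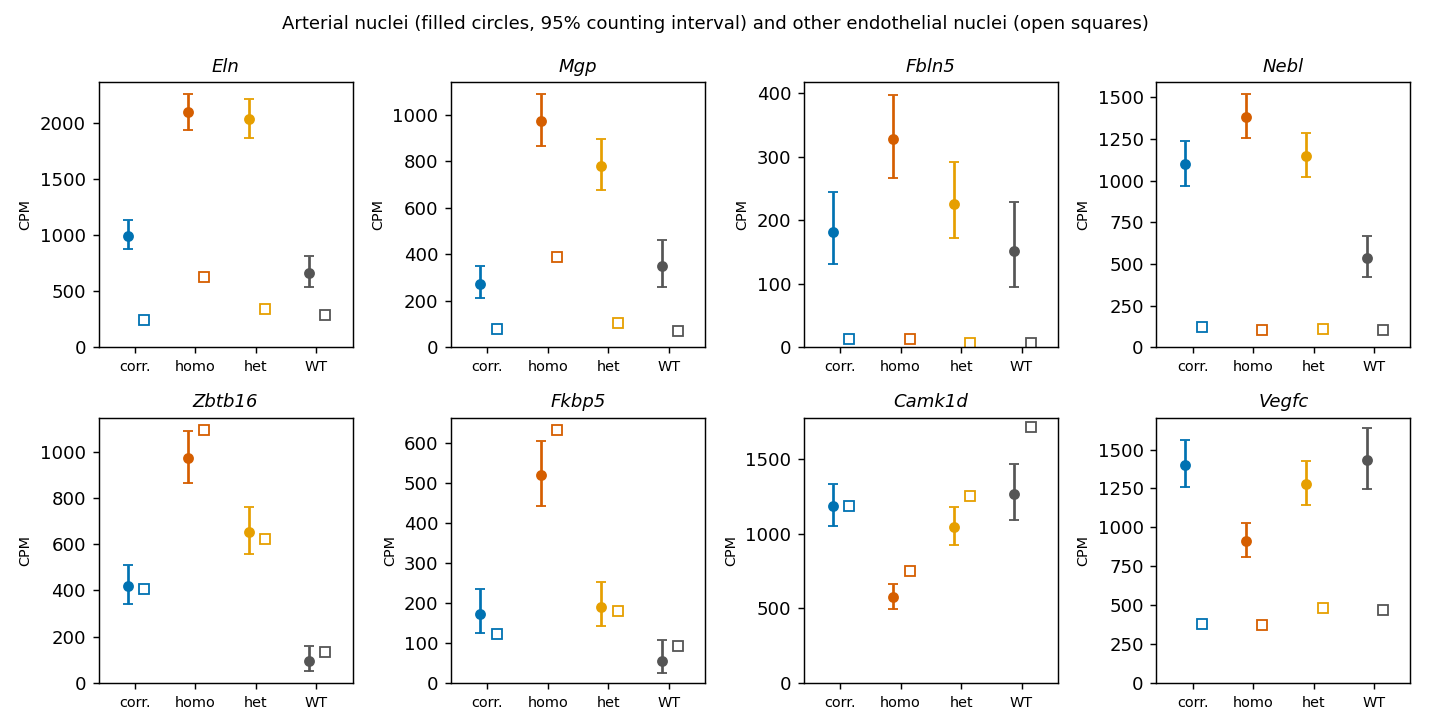
CPM (y axes) of Eln, Mgp, Fbln5, Nebl, Zbtb16, Fkbp5, Camk1d and Vegfc in arterial nuclei (filled circles, bars for 95% counting intervals) and other endothelial nuclei (open squares) of the 4 libraries (x axis). Eln in arterial nuclei was at 2094 CPM in RBM20 homo and 2033 in RBM20 het, against 996 in corrected and 665 in WT; Nebl was higher in arterial nuclei than in other endothelial nuclei of every library.

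The RNA of these genes was unevenly spread over the nuclei. At least 11 Eln UMIs were in 6 arterial nuclei of corrected (5.5%), 21 of RBM20 homo (15.8%), 14 of RBM20 het (13.1%) and 3 of WT (4.76%). Nuclei with 0 Eln UMIs made up 48.6%, 30.8%, 38.3% and 54.0%. Both ends of the distribution thus moved together between libraries. The 10 nuclei richest in Eln held 62.0% of its UMIs in corrected, 43.0% in RBM20 homo, 62.1% in RBM20 het and 73.2% in WT. Nebl had at least 11 UMIs in 4 nuclei of corrected, 9 of RBM20 homo, 7 of RBM20 het and 0 of WT. Without the richest nucleus of each library, Eln and Nebl stayed past the fold between RBM20 homo and WT. Among 2009 genes measured over the 412 nuclei, Eln had the second highest ratio of its variance to that expected from depth alone, 14.3, after Malat1 with 41.3. Mgp had 7.16, Arl15 7.26, Nebl 6.08, Mecom 5.53 and Vegfc 4.49, and the median gene had 1.30. The counting intervals of these genes do not hold this spread between nuclei.

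**Figure D5:**
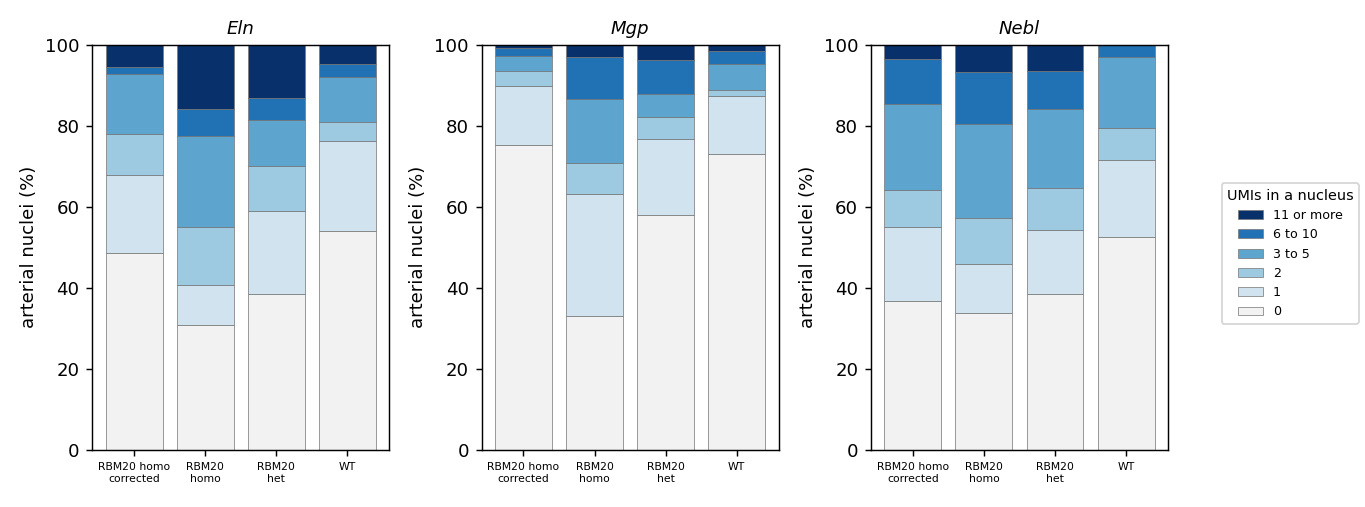
Share of arterial nuclei (y axis, percent) of each library (x axis) by the number of UMIs of Eln, Mgp or Nebl in a nucleus (shades, 0 to 11 or more). Nuclei with 0 Eln UMIs made up 30.8% in RBM20 homo and 38.3% in RBM20 het, against 48.6% in corrected and 54.0% in WT.

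Zbtb16 and Fkbp5, which respond to glucocorticoids, were also higher in RBM20 homo than in WT, in arterial and in other endothelial nuclei. Zbtb16, a transcription factor, had 420 CPM in arterial nuclei of corrected, 972 in RBM20 homo, 654 in RBM20 het and 96.0 in WT, 10.1-fold [5.94 to 18.7] for RBM20 homo over WT. In other endothelial nuclei it had 406, 1095, 622 and 131 CPM, 8.33-fold. Fkbp5, a co-chaperone of the glucocorticoid receptor, had 172, 520, 191 and 54.9 CPM in arterial nuclei and 123, 633, 180 and 91.7 CPM in other endothelial nuclei. Another class had more Fkbp5 in each library, with 487 CPM in fibroblast nuclei of corrected and 1270 in macrophage nuclei of RBM20 homo. Fibroblast nuclei of RBM20 het and WT had 545 and 280 CPM. A Zbtb16 UMI was in 49.5%, 74.4%, 64.5% and 17.5% of arterial nuclei and in 42.0%, 63.5%, 44.5% and 24.0% of macrophage nuclei, and the part of free RNA was not tested. Of the 4 measured genes of this list, 2 were past the fold upward and 0 downward, and the median log2 ratio was 1.69.

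Nppa, Ankrd1 and Col3a1 were also among the named genes higher in RBM20 homo. Of the 6 cardiomyocyte markers measured, 2 were past the fold upward and 1 downward, with a median log2 ratio of -0.16, and 0 fibroblast markers could be measured. Nppa, the atrial natriuretic peptide, had 6 UMIs in arterial nuclei of corrected (25.2 CPM), 205 in RBM20 homo (657), 4 in RBM20 het (15.6) and 1 in WT (6.86), 95.8-fold [17.0 to 3804] for RBM20 homo over WT. It was at 31.3, 863, 28.4 and 7.08 CPM in other endothelial nuclei, 40.8, 1090, 31.7 and 11 CPM in cardiomyocyte nuclei, and 747 CPM in macrophage nuclei of RBM20 homo. Ankrd1, a stretch-responsive muscle gene, had 71.5, 577, 156 and 61.7 CPM in arterial nuclei and 632, 2884, 1189 and 455 CPM in cardiomyocyte nuclei. Both were thus at similar or higher levels in nuclei of other types in the same library, and free RNA as their source was not tested. Col3a1, a fibrillar collagen, had 5, 39, 2 and 2 UMIs in arterial nuclei, and Ppm1e, a phosphatase, had 60 UMIs in RBM20 homo, 24 of which came from 1 nucleus. Hecw2, a ubiquitin ligase, had 265, 378, 280 and 110 CPM and was 3.45-fold higher [2.04 to 6.23], against 2.02-fold in other endothelial nuclei.

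The genes lower in RBM20 homo were fewer and smaller in count. Camk1d, a calcium-dependent kinase, had 1186 CPM in arterial nuclei of corrected, 574 in RBM20 homo, 1048 in RBM20 het and 1269 in WT, 0.452 [0.366 to 0.559] for RBM20 homo over WT. Its ratio in other endothelial nuclei was 0.438, from 752 CPM in RBM20 homo and 1718 in WT. St8sia4, a polysialyltransferase, had 122, 77.0, 136 and 302 CPM in arterial nuclei, 0.255 [0.148 to 0.429] for RBM20 homo over WT. Vegfa, an endothelial growth factor, had 105, 64.1, 70.1 and 219 CPM in arterial nuclei and 481, 367, 585 and 834 CPM in cardiomyocyte nuclei. Slc26a10, Vwa8, Casp8 and Runx1t1 lay at 0.234 to 0.370. Cpeb3 was at 0.334, and 22 of its 56 UMIs in WT came from 1 nucleus. Runx1 and Cd163 were at 0.276 and 0.312, and both are also read in macrophages. Runx1 had 1088 CPM in macrophage nuclei of WT, and without marked nuclei it was at 38.9, 3.88, 9.15 and 9.77 CPM in arterial nuclei. Cd163, whose own UMIs help to mark nuclei, then had 1 UMI in corrected, 1 in RBM20 homo, 2 in RBM20 het and 0 in WT, so that its lower level than in WT was not seen there for any of the 3 other libraries.

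The lists are read beside the background of 12.9% upward and 7.9% downward for RBM20 homo over WT. Of 10 measured genes of elastic fibres and basement membrane, 4 were past the fold upward and 0 downward, with a median log2 ratio of 0.54. These were Eln, Mgp, Fbln5 and Fn1, the last at 1.53 [0.975 to 2.47] and, without marked nuclei, at a log2 ratio of 0.27. Of 11 transcription factors, Epas1 (1.61 [1.28 to 2.04]) and Prdm16 (1.60 [1.08 to 2.44]) were past the fold upward. Ets1 (0.556), Dach1 (0.586), Erg (0.614) and Mef2c (0.638) were past the fold downward. The calls for Erg, Ets1 and Dach1 ended with a minimum of 4 arterial UMIs, at log2 ratios of -0.37, -0.30 and -0.48. Among the junction genes, Ctnnd1 (1.56), the catenin that binds VE-cadherin, was past the fold upward, and its call ended without marked nuclei at a log2 ratio of 0.55. Lpl, at 1.60, was the 1 of 6 lipid uptake genes past the fold, and its call ended with a minimum of 4 arterial UMIs at 0.17.

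Among the arterial signalling genes, Vegfc, Efnb2 and Rbpj were past the fold downward. Vegfc was at 0.638 of WT [0.531 to 0.766] and Efnb2 at 0.646 [0.468 to 0.896]. Both calls ended with TMM scaling, at log2 ratios of -0.52 and -0.50. Of 4 Notch genes, Rbpj was past the fold at 0.475, with 782 CPM in corrected, 404 in RBM20 homo, 382 in RBM20 het and 851 in WT. Without marked nuclei it was at 222, 109, 110 and 127 CPM, and its log2 ratio for RBM20 homo over WT was -0.23. Of 8 arterial markers measured, Stmn2 (2.19 [1.32 to 3.81]) and Fbln5 were past the fold upward and Vegfc and Efnb2 downward. Of 2 vascular tone genes and 5 BMP and TGF-beta genes, 0 were past the fold. The clock list and the interferon list had 1 measured gene each, and the adhesion and immediate early lists had 0, so nothing can be said of them at this depth.

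RBM20 het was compared with WT over 712 genes, of which 63 were higher (8.85%) and 31 lower (4.35%), with a median log2 ratio of 0.08. Upward calls were 67.0% of all calls, 87.1% with TMM scaling and 79.6% with median-of-ratios scaling, and TMM moved the median log2 ratio of all genes to 0.21. This comparison and that of RBM20 homo share the WT library. Zbtb16 was 6.81-fold higher [3.95 to 12.7], Eln 3.06-fold [2.46 to 3.84] and Nebl 2.15-fold [1.67 to 2.79]. Eln was thus about as far above WT as in RBM20 homo in arterial nuclei, whereas in other endothelial nuclei the Eln ratio was 1.19 [1.07 to 1.32] for RBM20 het and 2.19 [2.0 to 2.40] for RBM20 homo. Mgp was 2.23-fold higher [1.63 to 3.09]. Kirrel3 and Fmo2, both low in arterial nuclei, were 9.94-fold [2.55 to 85.3] and 5.54-fold [2.0 to 21.3] higher, from 35 against 2 UMIs and 39 against 4 UMIs. Of the 35 Kirrel3 UMIs, 13 came from 1 nucleus. In other endothelial nuclei the ratios were 1.73 for Kirrel3 and 1.97 for Fmo2.

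Lower in RBM20 het were Fyb, Runx1, Ifi203, Vegfa and Cd163, and without marked nuclei Fyb had 3 UMIs in RBM20 het and 5 in WT, and Cd163 had 2 and 0. Ifi203, an interferon-inducible gene, had 315, 279, 214 and 542 CPM, 0.395 [0.275 to 0.565] for RBM20 het over WT. Runx1, at 0.262, had a log2 ratio of -0.09 without marked nuclei. Of 7 elastic fibre and basement membrane genes, 4 were past the fold upward and 0 downward: Eln, Mgp, Ltbp4 (1.66 [1.14 to 2.45]), which tethers latent TGF-beta in elastic tissue, and Sulf1 (1.53 [1.11 to 2.12]). The median log2 ratio was 0.61. Epas1 (1.58) and Prdm16 (1.84) were past the fold upward again, and Erg (0.662) downward, with a log2 ratio of -0.04 at a minimum of 4 arterial UMIs. Efnb2 was at 0.635, a call that ended with TMM scaling at a log2 ratio of -0.53, and Rbpj was at 0.449 with a log2 ratio of -0.21 without marked nuclei. Tjp1 (1.60) and Ctnnd1 (1.77) were past the fold of 6 junction genes, and these calls ended without marked nuclei for Tjp1 (log2 ratio 0.48) and at matched depth for Ctnnd1 (0.42).

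Corrected was compared with RBM20 homo over 1112 genes, of which 105 were higher (9.44%) and 82 lower (7.37%), with a median log2 ratio of 0.04. Upward calls were 56.1% of all calls, 46.7% with the heart muscle limit at 1% and 46.3% with a minimum of 4 arterial UMIs. Eln was lower, at 0.476 [0.408 to 0.553], and so were Mgp at 0.281 [0.212 to 0.369] and Fbln5 at 0.553 [0.378 to 0.797]. Of 13 genes of elastic fibres and basement membrane, 0 were past the fold upward and 4 downward, Fbln2 (0.662 [0.466 to 0.929]) being the fourth, with a median log2 ratio of -0.20. The Fbln5 call ended with a minimum of 4 arterial UMIs at a log2 ratio of -0.55. Nppa was at 0.0384 [0.0139 to 0.0850] and Ankrd1 at 0.124 [0.0706 to 0.204], beside the levels in other nuclei given above. Zbtb16 at 0.433, Fkbp5 at 0.332 and Klf9 at 0.418 made 3 of the 4 glucocorticoid genes measured. Other endothelial nuclei had 406 CPM of Zbtb16 in corrected and 1095 in RBM20 homo. Gbp5, a guanylate-binding protein induced by interferon, had 37.8, 221, 54.5 and 75.5 CPM, 0.171 [0.0750 to 0.344], and Cst3, cystatin C, had 114, 452, 195 and 158 CPM, 0.251 [0.160 to 0.381].

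Higher in corrected than in RBM20 homo were Plxdc2, Atp2a2, Lncppara, Rasgrp3 and Camk1d. Plxdc2, a transmembrane receptor, had 349, 54.5, 136 and 247 CPM, 6.40-fold [3.77 to 11.5], and without marked nuclei 189 CPM in corrected and 50.4 in RBM20 homo. Fibroblast nuclei had 1431, 859, 1601 and 2251 CPM of it. Atp2a2, the calcium pump of heart muscle, had 753, 289, 428 and 542 CPM, 2.61-fold [2.01 to 3.40], beside 3170, 1358, 2343 and 3427 CPM in cardiomyocyte nuclei. Rasgrp3, an activator of Ras signalling in endothelium, was 2.59-fold higher and Camk1d 2.07-fold [1.71 to 2.51]. Vegfc (1.54 [1.31 to 1.81]) and Efnb2 (1.73 [1.31 to 2.29]) were higher, and Bmx (0.481 [0.337 to 0.677]) was lower. The Vegfc call ended under 4 settings, with log2 ratios of 0.50 to 0.54. Of 16 transcription factors, Ets1 (1.82) and Elk3 (1.56) were past the fold upward and 0 downward, and the Ets1 call ended at matched depth with a log2 ratio of 0.15. Cxcl12 (1.87), a chemokine of arterial endothelium, and Nfkb1 (1.54) were the 2 measured genes of the adhesion and chemokine list. Fabp4, the fatty acid carrier of capillaries, was at 0.461 [0.351 to 0.600] of RBM20 homo. Pericyte RNA was higher in corrected arterial nuclei: Abcc9 was 5.12-fold above RBM20 homo, and the 7 pericyte markers summed to 719 CPM in corrected, 231 in RBM20 homo, 378 in RBM20 het and 343 in WT. They were also highest in corrected in other endothelial nuclei, with 987, 479, 752 and 758 CPM. Pericyte nuclei made up 6.56% of nuclei in corrected and 3.32% in RBM20 homo.

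Corrected was compared with WT over 665 genes, of which 53 were higher (7.97%) and 28 lower (4.21%), with a median log2 ratio of 0.07. Upward calls were 65.4% of all calls and 83.3% with TMM scaling, which moved the median log2 ratio of all genes to 0.21. The genes that differed most were not the elastic ones. Eln was higher by just under the limit of 1.5-fold [1.18 to 1.92], and Mgp was at 0.781 [0.533 to 1.15]. Of 9 genes of that list Col4a1, a basement membrane collagen, was the 1 past the fold in the main results, at 2.10 [1.34 to 3.39]. TMM factors were 0.973 in corrected and 1.07 in WT, and median-of-ratios factors 1.01 and 1.05. Either scaling places Eln past the fold upward as well. Nebl remained 2.05-fold above WT [1.59 to 2.68] and Zbtb16 4.38-fold [2.49 to 8.30]. Cmss1 was 2.22-fold higher [1.79 to 2.78] in arterial nuclei and 1.60-fold in other endothelial nuclei, and Ttc23 and Ubac2 were 6.13-fold and 4.17-fold higher from 30 against 3 and 34 against 5 UMIs. Prdm16 was 1.86-fold higher [1.24 to 2.84]. Lower were Cd163, Apoe, Wwp1, St8sia4 and Sat1, and Cd163, at 0.0613, had 3 UMIs in corrected and 30 in WT, where macrophage RNA was highest, and 1 and 0 UMIs without marked nuclei. Wwp1, a ubiquitin ligase, had 160, 439, 351 and 391 CPM, 0.409 [0.264 to 0.627], and 128, 411, 220 and 195 CPM without marked nuclei. Fabp4 was at 0.513 [0.374 to 0.702] of WT.

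Rbm20 itself, the gene that carries the mutation, was low in arterial nuclei, with 416 CPM in corrected, 366 in RBM20 homo, 409 in RBM20 het and 473 in WT. Cardiomyocyte nuclei had 5179, 4619, 5147 and 5000 CPM and other endothelial nuclei 472, 349, 368 and 307 CPM. The rule limits the sum of Rbm20 with 3 other muscle genes. Counts of a gene also do not show its sequence, so these values do not check the labels.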

How the data were processed

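The deposited files held raw UMI counts per gene and barcode for 4 libraries. Per the submitters' processing notes they were made with Cell Ranger 6.1.1 on GRCm38 (mm10), with Seurat 4 also named, but the file headers give version 4.0.0 of Cell Ranger; the barcode filter and the counting of introns are not given in the sources used here. The authors' deposited count matrices list 32285 mouse genes and 2 added features.

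Counts were analysed with Python 3.11.15, numpy 2.4.6, scipy 1.17.1, pandas 2.3.3 and scanpy 1.11.5, and TMM factors with edgeR 4.0.16. Within each library, the UMIs of all nuclei in a class were added up and given as CPM of non-mitochondrial UMIs. Total UMIs per library were 51422458 in corrected, 52370368 in RBM20 homo, 42375104 in RBM20 het and 37180791 in WT. Quality limits removed 196, 99, 114 and 100 barcodes. With 1 library per genotype no test was possible, and 95% intervals cover counting error only. The interval method was tried on simulated counts that had counting error alone, which is what it assumes. That trial therefore does not cover uneven spread over nuclei, and intervals can be too narrow for genes such as Eln (variance ratio 14.3). In the main results, counts of genes past the fold and of list members measured needed at least 100 UMIs. Genes named by rank in the comparisons of genotypes needed at least 30 UMIs, so several of them are not in those counts.

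Named genes were the 10 highest and 10 lowest of RBM20 homo over WT, 5 and 5 of the other comparisons, and 15 and 15 of arterial over other endothelial nuclei, ranked by the interval's end nearest to 1, with at least 30 UMIs, or 100 for arterial over other. Genes under 0.2 of their level in another class in both libraries compared were left out, as were mitochondrial, haemoglobin, Xist, Tsix, Y-linked and unnamed genes and the genes of the selection rule. From the lists, every arterial marker and up to 4 members by size of RBM20 homo over WT were named. Other list members, and the values of genes in classes or settings chosen to stand beside them, were named after their values were seen. The members and lists were chosen with earlier results of these data known.

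The automatic threshold of Scrublet called 2991 doublets in corrected, 1 in RBM20 homo and 0 in the other libraries, so it was set aside. The main results keep all nuclei, and an alternative leaves out the highest scores, at 0.8% per 1000 nuclei. Alternatives changed the arterial minimum, each rule gene, the heart muscle limit, the denominator, the UMI minimum, the scaling and the depth (1000 UMIs per nucleus); 3 were added after seeing the data. Promoters are from RefSeq. Of the genes that the naming rule gave, 2 are not reported here.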

Additional observations from a re-analysis of the deposited data

Results flagged for a closer look

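The count matrices hold 2 features beside the mouse genes, named ABE_C and ABE_N, which no comparison above uses and whose sequences are not given in the sources used here. In corrected arterial nuclei they had 3 UMIs in all, 1 of ABE_C and 2 of ABE_N, in 3 of 109 nuclei, which is 12.6 CPM [2.60 to 36.9]. The arterial nuclei of RBM20 homo, RBM20 het and WT had 0 UMIs, which allows up to 9.62, 11.7 and 20.6 CPM (3 counts of the total), so the arterial level in corrected is near these limits. In corrected, other endothelial nuclei had 78 UMIs (18.8 CPM [14.8 to 23.4]) and cardiomyocyte nuclei 4670 UMIs (534 CPM). The part of free RNA in the 3 arterial UMIs was not tested.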

How the results depend on the processing

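No paired analysis was possible because each genotype has 1 library, and leaving out a replicate was not possible for the same reason. Of 52 share ratios under the alternatives, 50 moved by no more than their counting interval. The exceptions were corrected over RBM20 homo with an arterial minimum of 2 UMIs (0.594) and over all nuclei (0.631), both still below 1. Counts of genes past the fold were 176 for RBM20 homo over WT, 94 for RBM20 het over WT, 187 for corrected over RBM20 homo and 81 for corrected over WT. They were 494, 344, 474 and 317 with a minimum of 50 UMIs, and 9138, 8897, 8781 and 9003 with no filter beyond 1 UMI. At matched depth they were 45, 26, 64 and 22, where fewer genes could be tested (220, 166, 324 and 159). With an arterial minimum of 4 UMIs they were 110 for RBM20 homo over WT and 108 for corrected over RBM20 homo, where 446 and 604 genes could be tested. The genes past the fold between arterial and other endothelial nuclei numbered 547, and 434 to 679 under the alternatives. Of the named genes whose call could be followed, it ended under some alternative for 10 of 32 in RBM20 homo over WT, 7 of 20 in RBM20 het over WT, 3 of 19 in corrected over RBM20 homo and 0 of 13 in corrected over WT. The cause was not tested. Upward and downward calls changed order for corrected over RBM20 homo, with 105 and 82 in the main results, 77 and 88 with the heart muscle limit at 1%, and 50 and 58 with an arterial minimum of 4 UMIs. For RBM20 homo over WT they were 109 and 67 in the main results and 22 and 23 at matched depth. Without the nuclei marked by other lineages, Cd163 had 0 UMIs in WT, so that its calls against WT could not be followed there. That setting was skipped for Cd163, and the counts of ended calls above do not include it. At matched depth St8sia4 had a log2 ratio of -1.19 for RBM20 homo over WT and Ubac2 one of 0.71 for corrected over WT, against -1.97 and 2.06 in the main results. The 3 alternatives of leaving out nuclei with pericyte, macrophage or smooth muscle markers, the nucleus richest in a gene, and barcodes also found in another library, were chosen after seeing the data. Depth limits the counts of genes past the fold to genes with many UMIs: a gene with 0 UMIs in WT arterial nuclei could have up to 20.6 CPM.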

Other observations

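Dkk2, a secreted modulator of Wnt signalling and 1 of the arterial markers, was too low for the comparisons above and was picked out after its values were seen. It had 25 UMIs in arterial nuclei of corrected, 2 in RBM20 homo, 4 in RBM20 het and 16 in WT, or 105, 6.41, 15.6 and 110 CPM. These came from few nuclei, 8 of 109 in corrected, 2 of 133 in RBM20 homo, 3 of 107 in RBM20 het and 4 of 63 in WT. Other endothelial nuclei had 1.44, 1.91, 0 and 2.75 CPM.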
